A study of Gallus gallus with 4 samples.

Results

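The genes described here are the very abundant genes whose levels differed little between 2 phases of chicken granulosa cells, the somatic layer around the oocyte of an ovarian follicle. A gene was a member if it had at least 300 FPKM (fragments relative to transcript length and to all mapped fragments of the library) in all 4 libraries. In addition, its log2 ratio of (FPKM + 1) between preovulatory and prehierarchical cells had to lie between -0.5 and 0.5 with each plasmid, that is within 1.41-fold. Of 13819 genes listed for at least 1 library, 165 passed the floor and 65 of these passed both ratios. The members were thus selected on their measured levels and phase ratios, and both are given below as descriptions with no test.

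All cells were primary granulosa cells of hens aged 26 weeks. The preovulatory cells came from F2 to F4 follicles, which already stand in the size hierarchy that precedes ovulation, and the prehierarchical cells came from small yellow follicles that had not yet entered it. After 18 h in M199 medium with 5% fetal bovine serum at 39°C, the cells received pcDNA3.1-FOXL2 or the empty pcDNA3.1 vector with Lipofectamine 2000 and were harvested 48 h later. Each of the 4 groups, preovulatory control, preovulatory FOXL2, prehierarchical control and prehierarchical FOXL2, had 1 library, so no value has a replicate error. FOXL2 itself, markers of granulosa cells and markers of other cell types were not analysed here, since the tables carry Ensembl identifiers that no source used here pairs with symbols. The transfection and the cell type therefore stand on the labels. Summed over genes, FPKM came to 540243 for the preovulatory control, 528405 for preovulatory FOXL2, 534484 for the prehierarchical control and 556844 for prehierarchical FOXL2.

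FOXL2 is a forkhead transcription factor that granulosa cells need to keep their identity. In animal cells a small set of genes commonly supplies a large part of the messenger RNA, and genes for protein synthesis, energy metabolism and the cytoskeleton are typical of that set. Genes whose level changes little between conditions are the kind used as internal standards in expression assays. Which of these roles the members have is not stated, because of 13819 gene and 14609 transcript identifiers 0 were found in the reference gene table. The members are therefore described by identifier, and no sequence or position is printed.

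The rule divided the abundant genes unevenly between phases. Of the 165 genes above the floor, 39.4% met both ratios, against 38% of the 10639 genes that averaged 1 FPKM or more. The ratio was within the limit for 104 of the 165 with the control plasmid and for 76 with FOXL2. Among the 100 genes left out, 50 were outside with both plasmids, and 37 of these 50 were higher in prehierarchical cells with both. A further 39 genes were outside with the FOXL2 plasmid alone, 37 of them on the prehierarchical side, and 11 were outside with the control plasmid alone. The members leaned the same way with FOXL2: their median phase ratio was -0.01 with the control plasmid and -0.21 with FOXL2, where a negative value is higher in prehierarchical cells. Over all 10639 genes the medians were 0.17 and 0.23, so the typical gene lay on the preovulatory side. Steadiness on the deposited scale is thus not the centre of all genes. The sign of the phase ratio was the same with both plasmids in 47 members, 31 of them higher in prehierarchical and 16 higher in preovulatory cells. With the control plasmid 49.2% of the members were higher in preovulatory cells, against 61.7% of all genes and 25 of the 100 left out. With FOXL2 these were 27.7%, 63.9% and 18. The signs depend on scaling and come from the ratios that chose the members, and signs shared by both plasmids were not counted over all genes.

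**Figure D1:**
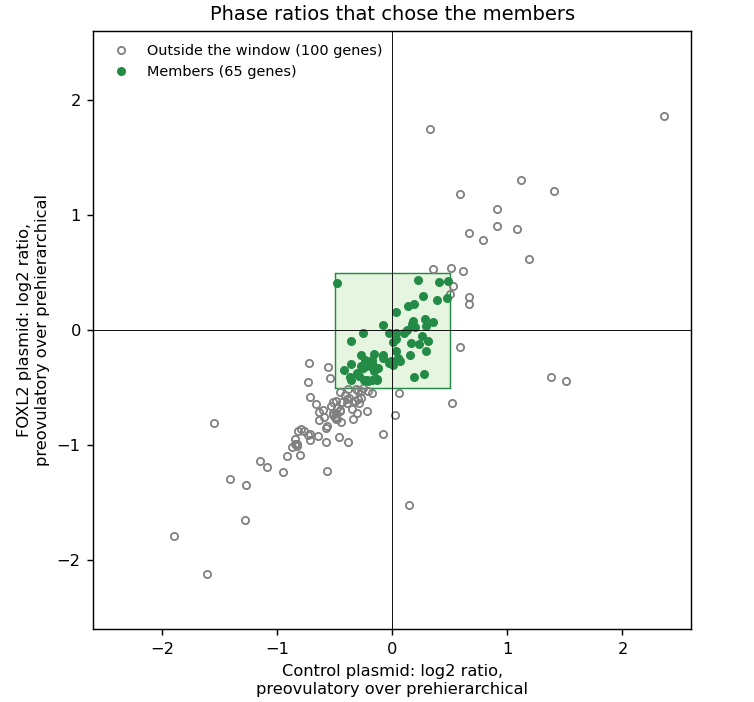
Log2 ratio of preovulatory over prehierarchical cells with the control plasmid (horizontal) and with FOXL2 (vertical) for the 165 genes of at least 300 FPKM in all 4 libraries. Each point is a gene, filled for the 65 members and open for the 100 others, and the square is the range of -0.5 to 0.5 that chose the members; most open points lie below the square or to its lower left, on the prehierarchical side.

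The limits of the rule cut through a continuous range of genes. Nearest above the floor, ENSGALG00000015791 had its lowest value of 324 FPKM in prehierarchical FOXL2 cells and ENSGALG00000007705 its lowest of 334 FPKM in prehierarchical control cells. Nearest below it, ENSGALG00000010811 had a lowest value of 299.6 FPKM and ENSGALG00000012568 one of 288 FPKM. Nearest inside the ratio limit, ENSGALG00000002286 had a control phase ratio of 0.48 and ENSGALG00000000364 one of -0.48. Nearest outside it, ENSGALG00000018366 had a control phase ratio of 0.502 and ENSGALG00000026077 a FOXL2 phase ratio of -0.503. Genes on either side of a limit thus differed by small amounts.

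Together the 65 members held a similar share of all FPKM in each library. Their share was 19% in the preovulatory control, 18.9% in preovulatory FOXL2, 18.4% in the prehierarchical control and 19.2% in prehierarchical FOXL2. The prehierarchical control was lowest and the prehierarchical FOXL2 library highest, a span under 1 percentage point. The 100 abundant genes outside the ratio limit spanned more, from 16.2% and 17.1% in preovulatory FOXL2 and control cells to 19.2% and 20.6% in prehierarchical control and FOXL2 cells. In such bulk samples, more cells of a type and more RNA per cell cannot be told apart. Both shares are descriptions, since the rule limits how far the members can differ between phases.

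**Figure D2:**
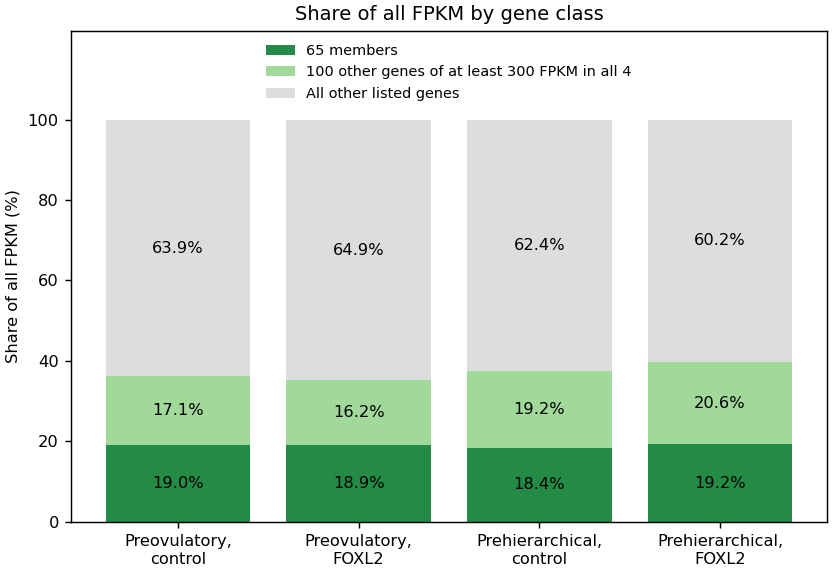
Share of all FPKM, in percent, held by the 65 members, by the 100 other genes of at least 300 FPKM in all 4 libraries and by all other listed genes, with 1 bar per library. The members hold 18.4% to 19.2% in every library, while the 100 other genes hold 16.2% to 20.6%.

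A few genes carried most of that share. The 6 most abundant members, each above 5000 FPKM in every library, held 10.2% and 10.1% of all FPKM in preovulatory control and FOXL2 cells and 9.38% and 9.94% in the prehierarchical ones. That is 51.1% to 53.5% of what the members held. A further 4 members had a mean of 2000 to 5000 FPKM, 10 one of 1000 to 2000, 23 one of 500 to 1000 and 22 one of 300 to 500. The median member stood at 609 and 580 FPKM in preovulatory control and FOXL2 cells and at 697 and 725 FPKM in prehierarchical control and FOXL2 cells.

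ENSGALG00000001559 was the most abundant gene of every library. It stood at 12954 FPKM in the preovulatory control, 12154 in preovulatory FOXL2, 12493 in the prehierarchical control and 14361 in prehierarchical FOXL2. This gene alone held 2.4%, 2.3%, 2.34% and 2.58% of all FPKM in those libraries, and it was highest in prehierarchical FOXL2 cells. ENSGALG00000018373 was at 12262 and 11035 FPKM in preovulatory control and FOXL2 cells and at 8816 and 9099 FPKM in the prehierarchical ones. Both of its preovulatory values thus exceeded both prehierarchical values, with phase ratios of 0.48 and 0.28. ENSGALG00000021717 had 8462 and 9287 FPKM in preovulatory control and FOXL2 cells and 8299 and 9759 FPKM in prehierarchical control and FOXL2 cells. In this gene both FOXL2 values exceeded both control values.

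The next 3 members varied less between libraries or in other orders. ENSGALG00000018370 had the narrowest range of all 65, with 8150 and 8353 FPKM in preovulatory control and FOXL2 cells and 7954 and 8516 FPKM in the prehierarchical ones. Its highest value was 1.07 times its lowest, and it kept rank 5 in every library. ENSGALG00000018367 stood at 6856 and 6134 FPKM in preovulatory control and FOXL2 cells and at 6985 and 7479 FPKM in prehierarchical control and FOXL2 cells, lowest in preovulatory FOXL2. ENSGALG00000018368 stood at 6306 and 6353 FPKM in preovulatory control and FOXL2 cells and at 5604 and 6131 FPKM in the prehierarchical ones, lowest in the prehierarchical control.

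**Figure D3:**
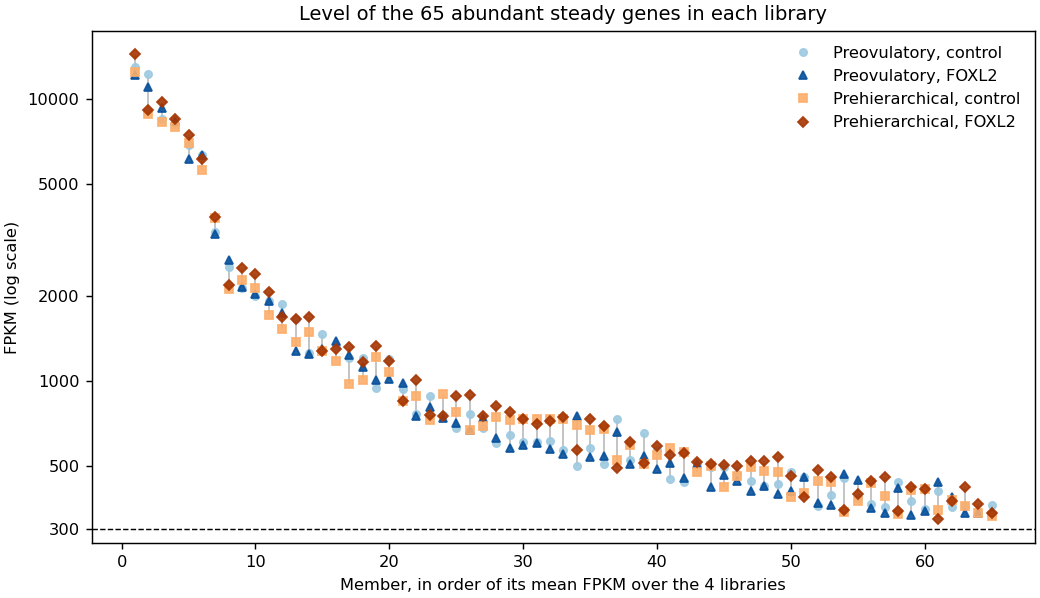
FPKM on a log scale of each of the 65 members in the 4 libraries, with the members in order of their mean; a grey line joins the lowest and the highest library of a gene and the dashed line is the floor of 300 FPKM. The first 6 members lie above 5000 FPKM in every library, and the 4 symbols of a member span 1.07-fold to 1.5-fold.

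The order of the members by level was alike in all libraries. In each library 7 of the 10 most abundant genes were members, and these were the same 7 genes throughout. Between 35 and 41 of the 100 most abundant genes were members. Spearman's rho of the levels across the 65 members was 0.98 between the plasmids in either phase, and 0.93 to 0.95 between libraries of different phases. For the 100 abundant genes outside the limit it was 0.93 between plasmids in either phase and 0.57 to 0.59 between phases. These are correlations across genes with no p-value, the genes of a library share its scale, and the rule itself keeps the members' order alike between phases. Lower members changed place more: ENSGALG00000002286 was 26th among the members in the preovulatory control and 49th in prehierarchical FOXL2. Its ranks among all genes in these 2 libraries were 57 and 156. Its values were 733 and 663 FPKM in preovulatory control and FOXL2 cells and 525 and 494 FPKM in prehierarchical control and FOXL2 cells, higher in both preovulatory libraries. ENSGALG00000010870, at 457 and 469 FPKM in preovulatory control and FOXL2 cells and 345 and 350.5 FPKM in the prehierarchical ones, showed the same order.

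Over the 4 libraries, the highest value of a member was 1.07 to 1.5 times its lowest, with a median of 1.23. For 22 members all 4 values lay within 1.2-fold of each other, and for 5 within 1.1-fold. The highest of the 4 values was in prehierarchical FOXL2 cells for 36 of the 65 and in the preovulatory control for 13. The lowest was in preovulatory FOXL2 cells for 26 and in the prehierarchical control for 23. Among the 100 abundant genes outside the limit, 71 were highest in prehierarchical FOXL2 cells and 14 in the preovulatory control. Of these 100, 62 were lowest in preovulatory FOXL2 cells and 14 in the prehierarchical control. The order is thus not particular to the members, and the shares over all genes were not counted. The prehierarchical FOXL2 library also had the highest total FPKM and the preovulatory FOXL2 library the lowest, and the part of these totals in the members' order was not tested.

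The plasmid ratio, FOXL2 over control within a phase, was not used to choose the members, but the rule limits the gap between the ratios of the phases to at most 1 on the log2 scale. In preovulatory cells 1 of 65 members was at least 1.5-fold higher with FOXL2, against 3.14% of all 10639 genes, and 0 were at least 1.5-fold lower, against 3.59%. The 1 gene stood barely past that size, and the count was 0 with the library medians set equal or with a limit of 0.4 on the phase ratios. In prehierarchical cells 0 members were at least 1.5-fold higher, against 3.14% of all genes, and 0 were at least 1.5-fold lower, against 3.99%. Among the 848 genes that averaged 100 FPKM or more, 0.943% were higher and 2.59% lower in preovulatory cells, and 2.24% were higher and 0.472% lower in prehierarchical cells. Among the 100 genes above the floor but outside the phase limit, 2 were higher and 5 lower in preovulatory cells, and 3 higher and 1 lower in prehierarchical cells. At 1.5-fold, the 1 member in 65 that was higher in preovulatory cells is close to the shares of both these sets.

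With the size lowered to at least 25% higher or at least 20% lower, the members' counts were again small. In preovulatory cells 1 member was higher and 1 lower, against 12% and 11.3% of all genes and 5.54% and 6.84% of the genes of at least 100 FPKM. In prehierarchical cells 2 members were higher and 0 lower, against 9.27% and 16.1% of all genes and 7.08% and 3.18% of those of at least 100 FPKM. Among the 100 abundant genes outside the phase limit, 4 were higher and 9 lower in preovulatory cells and 8 were higher and 1 lower in prehierarchical cells. The limit on the gap leaves less room for a large ratio in 1 phase alone, so the smaller counts of the members are in part fixed by the rule. With 1 library per group none of these counts has a test.

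On the deposited scale, most members lay slightly above 0 in prehierarchical cells and slightly below it in preovulatory cells. In prehierarchical cells 53 of 65 were higher with FOXL2, with a median log2 ratio of 0.1 (quartiles 0.02 and 0.15). Over all genes 42.4% were higher there, with a median of -0.05. In preovulatory cells 24 of 65 were higher with FOXL2, with a median of -0.03 (quartiles -0.11 and 0.04), against 49.8% of all genes and a median of 0. The abundant genes outside the limit showed the same signs, with 85 of 100 higher in prehierarchical cells (median 0.13) and 25 of 100 higher in preovulatory cells (median -0.07). The sizes and the counts of genes above 0 depend on scaling in both phases, and in preovulatory cells so does the sign of the median. With every library scaled to the same sum, the members' medians were 0.039 in prehierarchical and 0.00041 in preovulatory cells, and with the library medians set equal they were 0.17 and -0.05.

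**Figure D4:**
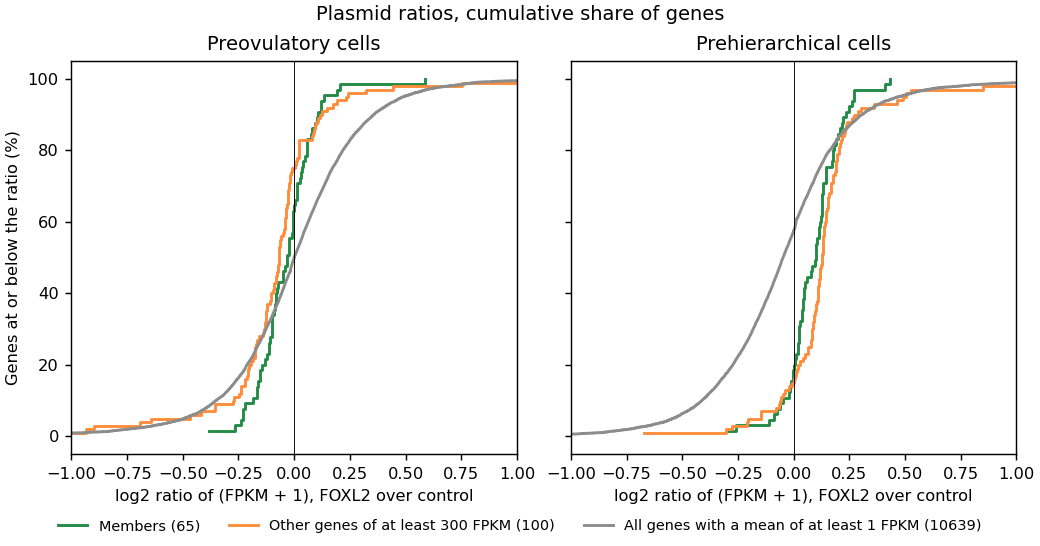
Cumulative share of genes, in percent, by log2 ratio of (FPKM + 1) of FOXL2 over control in preovulatory (left) and prehierarchical cells (right), for the 65 members, the 100 other genes of at least 300 FPKM and all 10639 genes; ratios beyond 1 in either direction are not drawn. The members' curve spans the narrowest range in both panels, and in prehierarchical cells it crosses the middle at 0.1 while that of all genes crosses it at -0.05.

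The sums over members moved with those signs. In preovulatory cells the members' summed FPKM was 102832 with control and 100034 with FOXL2, a difference of -2.72%, while that of the sum over all genes was -2.19%. In prehierarchical cells it was 98129 with control and 106811 with FOXL2, a difference of 8.85%, while that of the sum over all genes was 4.18%. Of that prehierarchical difference of 8682 FPKM, 5194 lay in the 6 most abundant members and 1868 in ENSGALG00000001559 alone. These 6 genes held 51.1% of the members' FPKM in the prehierarchical control.

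The members with the widest plasmid ratios were different genes in each phase, with 1 exception. ENSGALG00000000364 stood at 503 FPKM in the preovulatory control and 757 with FOXL2, and at 701 FPKM in the prehierarchical control and 570.3 with FOXL2. It had both the highest preovulatory ratio of all members, 0.59, and the lowest prehierarchical one, -0.30. It was the single member past 1.5-fold, where a log2 ratio of 0.585 was needed and its own was 0.589; with the library medians set equal it had 0.572 and was not past. Its phase ratios had opposite signs with the 2 plasmids, -0.48 with control and 0.41 with FOXL2. ENSGALG00000009070 had the next highest preovulatory ratio, 0.21, at 387 FPKM with control and 447 with FOXL2. Its prehierarchical values were 377 and 399 FPKM, so FOXL2 was the higher library in both phases.

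At the low end in preovulatory cells, ENSGALG00000013723 stood at 1667 FPKM with control and 1277 with FOXL2, a log2 ratio of -0.38. In prehierarchical cells it stood at 1376 and 1659 FPKM, the reverse order. ENSGALG00000007651 stood at 655 FPKM with control and 544 with FOXL2 in preovulatory cells, a log2 ratio of -0.27, and at 512 and 516 FPKM in prehierarchical cells. Its prehierarchical libraries were thus nearly equal, and both were below the preovulatory ones.

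In prehierarchical cells the highest ratio belonged to ENSGALG00000018357, at 978 FPKM with control and 1320 with FOXL2, a log2 ratio of 0.43. Its preovulatory values of 1214 and 1238 FPKM lay between these. ENSGALG00000015780 followed, at 672 FPKM with control and 895 with FOXL2 and a log2 ratio of 0.41, against 767 and 675 FPKM in preovulatory cells. This gene was thus higher with FOXL2 in 1 phase and lower in the other. After ENSGALG00000000364, the lowest prehierarchical ratio was that of ENSGALG00000005086, at 905 FPKM with control and 756 with FOXL2, a log2 ratio of -0.26. Its preovulatory values were 759 and 743 FPKM, so on the deposited scale it was lower with FOXL2 in both phases. Its preovulatory log2 ratio was only -0.03 and became 0.00041 with every library scaled to the same sum.

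Averaged over the 2 phases, plasmid ratios were small in every member. The mean of both log2 ratios ran from -0.14 to 0.23 over the 65 members, with a median of 0.03 and an SD over genes of 0.08, and 51 members were within 0.1 of 0. The SD was 0.11 for the 848 genes that averaged 100 FPKM or more and 0.2 for all 10639 genes, and 0.19 for the 100 abundant genes outside the limit, where the most extreme mean was 1.76. Within 0.1 of 0 were 78.5% of the members, 84% of those 100 genes, 76.4% of the 848 and 51.3% of all genes. The median absolute mean was 0.058 in the members, 0.047 in the 100 and 0.056 in the 848. By the share within 0.1 of 0 and the median absolute mean, the members were close to other abundant genes, while their SD was the smallest. Ratios of opposite sign in the 2 phases cancel in this mean. In preovulatory cells alone 58.5% of the members were within 0.1 of 0, against 48% of the 100 and 43.5% of the 848. In prehierarchical cells alone these shares were 49.2%, 30% and 43.9%. The rule limits the gap between phases, so the shares by phase are in part fixed by it. The highest mean belonged to ENSGALG00000018357, at 0.23, followed by ENSGALG00000021717, at 0.18. The lowest belonged to ENSGALG00000005086, at -0.14, and ENSGALG00000007651, at -0.13. The limit on the gap does not bound this mean directly.

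Plasmid ratios had opposite signs in the 2 phases for 39 of 65 members (60%), close to the 60.6% of all genes, and for 78 of the 100 abundant genes outside the limit. FOXL2 was higher in prehierarchical and lower in preovulatory cells for 34 members, and the reverse held for 5. It was higher in both phases for 19 members and lower in both for 7. The first order was that of 52.3% of the members and 26.6% of all genes, and the reverse order that of 7.69% and 34%. Higher in both phases were 29.2% of the members and 15.6% of all genes, and lower in both 10.8% and 23.1%. The 100 abundant genes outside the limit had 69 in the first order, 9 in the reverse, 16 higher in both and 6 lower in both. All these signs are on the deposited scale, and ratios near 0 change sign with scaling. With every library scaled to the same sum, the members' medians were 0.039 in prehierarchical and 0.00041 in preovulatory cells. The share of members in the first order therefore depends on the scale. Across the 65 members the ratios of the phases gave Pearson's r as -0.35 and Spearman's rho as -0.15, with no p-value. The rule limits the gap between a member's 2 ratios to at most 1 on the log2 scale. The members' r, rho and share of opposite signs are thus in part fixed by the rule, while the set of all genes has no such limit. Over all 10639 genes r was -0.35 and rho -0.32, and over the 100 abundant genes outside the limit r was -0.1 and rho -0.48. Without ENSGALG00000000364 the Pearson r was -0.17 over 64 members, so its size rests on 1 gene. The value columns of prehierarchical FOXL2 and of the preovulatory control carry a trailing 2 and 1 in the deposited headers and those of the other libraries do not. No source used here says what that number means, and a difference along it cannot be told apart from a plasmid difference that depends on phase.

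**Figure D5:**
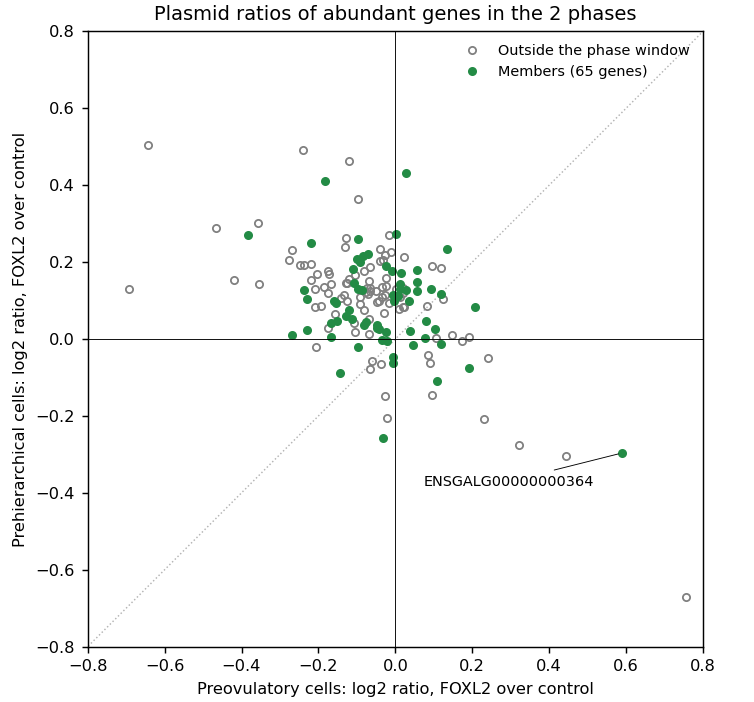
Log2 ratio of FOXL2 over control in preovulatory (horizontal) and prehierarchical cells (vertical) for the 65 members (filled) and the abundant genes outside the phase limit (open, 96 of 100 within the axes); the dotted line marks equal ratios. Members cluster above the horizontal line at 0, with 34 at the upper left, and ENSGALG00000000364 stands apart at the lower right.

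Among the members, level and plasmid ratio were weakly related. Spearman's rho of mean FPKM with the plasmid ratio was 0.02 in preovulatory and 0.3 in prehierarchical cells over the 65 members, and -0.08 with the log2 range over the 4 libraries. The 6 members above 5000 FPKM had median plasmid ratios of -0.04 in preovulatory and 0.11 in prehierarchical cells. The 22 members of 300 to 500 FPKM had medians of -0.07 and 0.06. Between these, the 23 members of 500 to 1000 FPKM had -0.03 and 0.03 and the 10 of 1000 to 2000 FPKM had -0.05 and 0.16. The 4 members of 2000 to 5000 FPKM had 0.01 and 0.09, so the medians did not rise steadily with level.

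One feature that the rule did not use is shared by 8 members, and it was singled out after their values were seen. Their identifiers fall within a run of 26 consecutive numbers, from ENSGALG00000018357 to ENSGALG00000018382. The tables list 11 genes in that run, all abundant: their values lay between 978 and 12262 FPKM, and none ranked below 47th in a library. The next listed genes on either side, ENSGALG00000017715 and ENSGALG00000018401, had means of 0.23 and 4.67 FPKM. Their identifiers lay 642 numbers below and 19 above the run, so they are not adjacent to it. The difference between gene and transcript number was the same for all 11. Neighbouring identifiers state no function or position, and none is given here.

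The 8 members of the run held 36.7% to 40.1% of the members' FPKM in each library, and 4 of them are among the 6 most abundant members described above. Their share of all FPKM was 7.64% and 7.52% in preovulatory control and FOXL2 cells and 6.79% and 7.04% in the prehierarchical ones, so both preovulatory values were higher. Most of that difference lay in ENSGALG00000018373. This gene held 2.27% and 2.09% in preovulatory control and FOXL2 cells and 1.65% and 1.63% in the prehierarchical ones. The other 57 members held 11.4% in both preovulatory libraries and 11.6% and 12.1% in the prehierarchical control and FOXL2 libraries. In prehierarchical cells all 8 were higher with FOXL2, with log2 ratios from 0.05 to 0.43 and a median of 0.11; 45 of the other 57 members were higher there, with a median of 0.08. In preovulatory cells 6 of the 8 were higher, with ratios from -0.16 to 0.08 and a median of 0.01, against 18 of the other 57 and a median of -0.04. The counts in both phases are on the deposited scale, and ratios near 0 change sign with scaling. Among the 6, ENSGALG00000018361, ENSGALG00000018368 and ENSGALG00000018364 had preovulatory ratios of only 0.0011, 0.011 and 0.014.

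The 3 genes of the run that are not members missed the ratio limit in different ways. ENSGALG00000018360 stood at 2845 and 2812 FPKM in preovulatory control and FOXL2 cells and at 3973 and 4789 FPKM in the prehierarchical ones. ENSGALG00000018378 had the opposite order, with 2712 and 2896 FPKM in preovulatory and 1775 and 2024 FPKM in prehierarchical control and FOXL2 cells. ENSGALG00000018366, at 2484 and 2153 FPKM in preovulatory and 1753 and 1728 FPKM in prehierarchical control and FOXL2 cells, is the gene named above as nearest outside the limit. The run as a whole was thus abundant in every library but not uniformly steady between phases.

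The tables list 1 transcript for 57 of the 65 members (87.7%) and 2 for the other 8. Among the 100 abundant genes outside the limit 89 had a single transcript, and among all 10639 genes 94.8% did. Fragments shared between similar genes were divided by the authors' estimation, so members with near-identical copies elsewhere carry an uncertainty that their FPKM does not show.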

How the data were processed

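Each library came as a table of FPKM per Ensembl gene as deposited by the authors, per the file headers. Bowtie, RSEM and genome build galGal4 are named in the submitters' processing notes; for versions, strand use and pooling of cultures, the sources used here give nothing. Tables list values from 0.01 FPKM, so a missing gene was taken as 0. No counts were used and depth is unknown, so no counting interval is given.

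The 4 tables were joined on gene identifier. Ratios are log2 of (FPKM + 1), which hardly alters ratios at 300 FPKM and understates those of low genes. Shares of all genes use the 10639 genes that averaged 1 FPKM or more. Groups hold 1 library each, so genes were counted by fold. An additive model of phase and plasmid would leave 1 residual degree of freedom, the gap between the phases' plasmid ratios. The membership rule limits that gap, so such a test would not be independent of the rule, and none was run. The calculation of members and counts was tested on simulated data. Python 3.11.15, numpy 2.4.6, pandas 2.3.3 and matplotlib 3.10.9 were used.

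Genes named are the 6 most abundant members, the 2 highest and 2 lowest plasmid ratios of each phase and of their mean, the 2 members whose place among the members changes most, the narrowest range and the 2 genes on each side of each limit. Members and rule were chosen with earlier results of these data known. Gene lists and cell type markers that need symbols were not used here. Alternatives were pseudocounts of 0.1 and 5 FPKM, other floors, ratio limits and folds, other scalings and other filters.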

Additional observations from a re-analysis of the deposited data

Results flagged for a closer look

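In 4 members the plasmid ratio was at least 1.1-fold and of opposite sign in the 2 phases; the difference between phases has 1 library pair per phase and was not tested, and the size was chosen after the values were seen. The prehierarchical minus preovulatory log2 ratio was -0.89 for ENSGALG00000000364, which was higher with FOXL2 in preovulatory cells. It was 0.65 for ENSGALG00000013723, 0.59 for ENSGALG00000015780 and 0.47 for ENSGALG00000002495, which were higher with FOXL2 in prehierarchical cells. ENSGALG00000002495 stood at 477 and 409 FPKM in preovulatory control and FOXL2 cells and at 389 and 463 FPKM in the prehierarchical ones. These 4 are 6.15% of the members, against 26.6% of all genes. By the same size 0 members had both ratios in the same direction, against 10.8% of all genes. Further, 23 of the 100 abundant genes outside the phase limit were opposite and 1 was alike. Selection by phase ratio holds a member's 2 plasmid ratios within 1 log2 unit of each other, which leaves less room for opposite ratios. The 6.15% is thus in part fixed by the rule and is not a measured trait of the members. The set of all genes also includes genes of low level, and neither share is given for the genes that averaged 100 FPKM or more.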

How the results depend on the processing

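Membership depends on scale and limits: 65 genes as deposited, 41 with the library medians set equal (33 shared), 74 with the libraries scaled to equal sums (63 shared), 114 with a floor of 200 FPKM and 38 with one of 500 FPKM; with limits of 0.4 and 0.6 on the phase ratios there were 50 and 85. Applied to 3 libraries, which drops a floor and a phase ratio, the rule kept 77 to 108 genes. There were 77 without the preovulatory control, 108 without preovulatory FOXL2, 78 without the prehierarchical control and 104 without prehierarchical FOXL2. Each set includes the 65, which was fixed in advance because dropping conditions can only add genes. With the libraries scaled to the members' geometric mean there were 79 (61 shared). In each of these scalings only the phase ratios were rescaled, and the floor of 300 FPKM stayed on the deposited values. Pseudocounts of 0.1 and 5 FPKM gave the same 65 genes. For these 65 genes, equal sums gave a preovulatory median plasmid ratio of 0.00041, the sign reversed from -0.03, and a prehierarchical one of 0.039. Equal library medians gave a prehierarchical median of 0.17 and 0 members 1.5-fold higher in preovulatory cells. That scaling shifts every log2 ratio of a phase by the same amount. The preovulatory ratio of ENSGALG00000000364 went from 0.589 to 0.572, below the 0.585 needed. Why the library medians differ was not tested. On the deposited scale, the preovulatory count of 1 became 0 with a limit of 0.4, 2 with 0.6 and 0 at 2-fold. With the limit of 0.6, 1 member was also higher in prehierarchical cells. At 25% higher or 20% lower, 1 member was lower in preovulatory and 2 were higher in prehierarchical cells.

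With a filter of 5 FPKM, 4.23% of all genes were 1.5-fold apart between plasmids in preovulatory cells and 4.67% in prehierarchical cells, against 6.73% and 7.12%. Settings added after the values were seen leave out the 6 most abundant members, leave out the run of identifiers or a library, scale to the members' geometric mean or require genes listed for all 4 libraries. Without the 8 members of the run, the share of all FPKM was 11.4% in both preovulatory libraries and 11.6% and 12.1% in the prehierarchical control and FOXL2 libraries. Set beside the members, the 100 abundant genes outside the limit held 2 that were 1.5-fold higher and 5 lower in preovulatory cells, and 3 higher and 1 lower in prehierarchical cells. No paired analysis was possible because each group had 1 library. A model with phase as a term was not run, since the rule limits its error. Unknown depth allows no counting error.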
